A study of Mus musculus with 20 samples.

Results

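The genes that interconvert lactate and pyruvate and carry them across membranes were examined in the hearts of mice with iron-deficiency anemia. The set holds 7 genes, *Ldha*, *Ldhb*, *Slc16a1*, *Slc16a3*, *Bsg*, *Mpc1* and *Mpc2*, which were picked by name from the 23420 genes counted, and all 7 were among the 13590 genes tested. Whole hearts of male wild type C57BL/6 mice (C57BL/6J in the methods of the study) were sequenced at 9 weeks of age. From 3 weeks of age, 10 mice had received a control diet (CD, the control group) and 10 had received an iron-deficient diet (ID, the IDA group), in each case for 6 weeks. The labels give the iron content of the deficient diet with opposite signs in different fields, so no value for it is used here. The study left out a mouse of each diet for contamination without naming it, so all 20 mice are included here. RNA came from pieces of whole heart, in which fewer cells of a type and less RNA per cell cannot be told apart.

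Pyruvate is the end product of glycolysis, and lactate dehydrogenase converts it to lactate and back while exchanging NADH for NAD+. The enzyme is a tetramer of A and B subunits, encoded by *Ldha* and *Ldhb*, and the B subunit predominates in the working heart, an organ that takes up lactate as a fuel. Lactate crosses the plasma membrane with a proton through monocarboxylate transporters, of which MCT1 (*Slc16a1*) is the common form in cardiac muscle and MCT4 (*Slc16a3*) is known from tissues that export lactate. Both need the glycoprotein basigin (*Bsg*) to reach the cell surface. Pyruvate enters mitochondria through a carrier made of *Mpc1* and *Mpc2*. *Ldha* and *Slc16a3* are textbook targets of the hypoxia-inducible factors, which bind a short core sequence, RCGTG, in the hypoxia response element.

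The stretches upstream of *Slc16a3* and *Ldha* are shown because the textbook regulator of these members is the hypoxia-inducible factor. The study measured HIF-1α protein in hearts of both diets, and does not say that these were the sequenced hearts. Both run 5′ to 3′ on the strand of the gene and end at the base before the RefSeq start site in the GRCm38.p6 build. Capitals mark ACGTG or GCGTG on either strand, and matches to both strands overlap where CACGTG occurs. The *Slc16a3* stretch lies at chr11:120948817-120949066 and the *Ldha* stretch at chr7:46845554-46845803, both on the plus strand. The *Slc16a3* gene as counted begins earlier, at 120948484, so its stretch lies within the counted gene and is upstream of a later start site only.
Slc16a3: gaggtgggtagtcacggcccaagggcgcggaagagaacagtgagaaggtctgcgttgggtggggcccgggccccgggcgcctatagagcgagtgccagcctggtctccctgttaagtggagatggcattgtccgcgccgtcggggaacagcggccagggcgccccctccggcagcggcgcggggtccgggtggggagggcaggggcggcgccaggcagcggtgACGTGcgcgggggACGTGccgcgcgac
Ldha: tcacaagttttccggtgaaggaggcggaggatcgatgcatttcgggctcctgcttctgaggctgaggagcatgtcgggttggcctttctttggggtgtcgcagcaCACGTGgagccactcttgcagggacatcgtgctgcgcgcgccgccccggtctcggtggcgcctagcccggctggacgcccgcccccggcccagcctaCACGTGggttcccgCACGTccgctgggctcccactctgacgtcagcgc

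The *Slc16a3* stretch held ACGTG 2 times on its own strand, at positions -27 to -23 and -14 to -10 from the start site. The *Ldha* stretch held 5 matches to ACGTG over both strands, of which 4 were the overlapping pairs of 2 CACGTG runs, at -145 to -140 and -48 to -43. A second *Ldha* start site in the table, at 46847082, had 1 match to GCGTG and none to ACGTG in its own 250 bases. In *Slc16a1*, the stretch at chr3:104638414-104638663 held 4 matches, of which 2 were the overlapping pair of a CACGTG run. *Ldhb* and *Mpc2* had 1 match each, both to GCGTG, and *Mpc1* had 1 match to GCGTG before 1 of its start sites and no match before the other. No entry was found for *Bsg*. All 6 members with an entry thus had a match before at least 1 start site. Among all 27025 genes in the table, ACGTG was found in 18.5%, GCGTG in 30.9% and either in 41.5%. Of the members, 3 of the 6 had ACGTG. These are matches of letters and were not tested for binding.

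Between 6797180 and 8960688 read pairs were counted on genes in control mice and between 6682177 and 7833916 in IDA mice. Values are CPM, counts relative to the library total after trimmed-mean (TMM) scaling. Differences between the diets were tested by quasi-likelihood in edgeR, with p-values adjusted by Benjamini-Hochberg over all 13590 genes. On this scale, 67.5% of all tested genes passed an adjusted p below 0.05, with 35.0% higher and 32.5% lower in IDA mice, and the median log2 fold change was 0.02. Markers of cardiac muscle cells were abundant in every mouse, at a summed 4683 to 5660 CPM in control and 4468 to 5841 CPM in IDA mice. The p-values treat the mice of a diet as independent. The study housed its mice in shared cages and the labels give no litter or cage, so the part of these was not tested.

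Of the 7 genes, 5 were higher in IDA mice, 0 were lower, and *Slc16a1* and *Mpc1* did not pass the test. The median log2 fold change over the 7 was 0.15. The share of genes called higher was 35.0% over all genes. By the rule of p below 0.01 in both edgeR and DESeq2, which takes in 59.8% of all genes, the same number, 5, was called. *Slc16a3* had by far the highest log2 fold change of the 7, at 0.94, while the other 4 called genes lay between 0.15 and 0.22. These small differences depended on how depth and gene length were handled, as described for each gene.

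**Figure D1:**
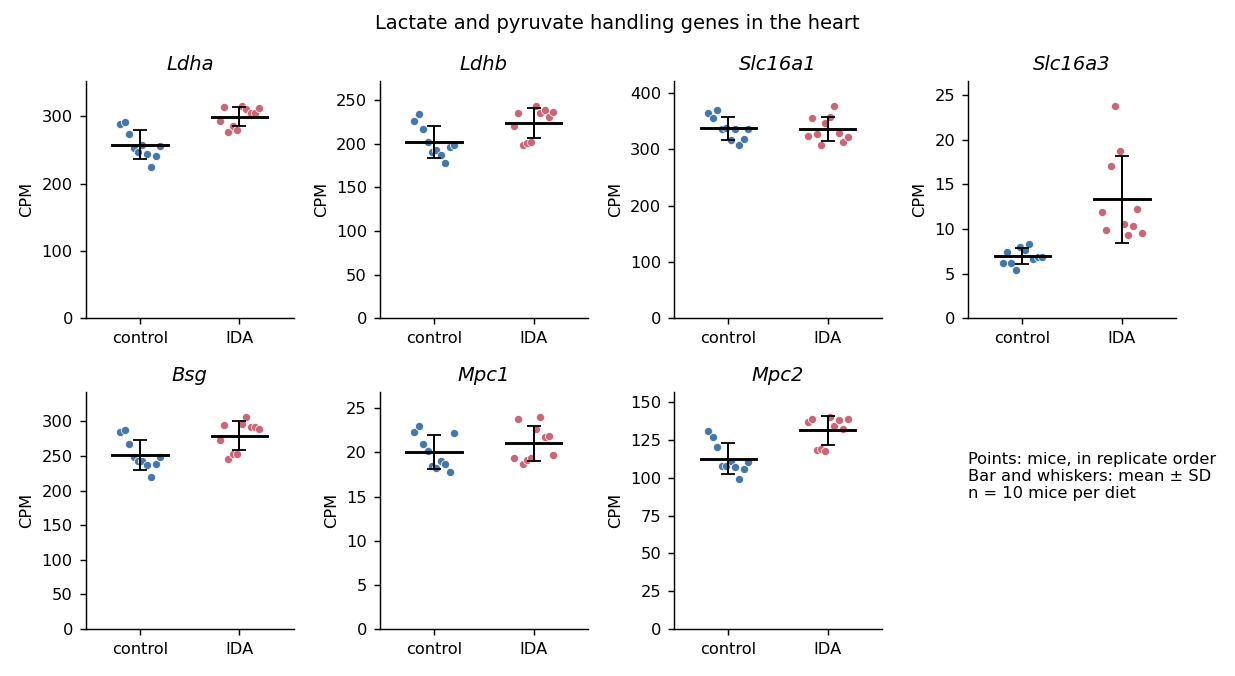
CPM of each gene in each mouse, with control mice in blue and IDA mice in red. The line and whiskers give the mean and SD of 10 mice, and each axis starts at 0. *Slc16a3* is the gene whose diets do not overlap, with IDA mice from 9.35 to 23.7 CPM and control mice from 5.38 to 8.36 CPM.

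*Slc16a3*, on chromosome 11 of mm10 from 120948484 to 120959000, plus strand, encodes MCT4, the carrier of lowest level in the set. In control hearts it lay between 5.38 and 8.36 CPM with a median of 6.87. In IDA hearts it lay between 9.35 and 23.7 CPM with a median of 11.2. Every IDA mouse was above every control mouse, which was so for 4.97% of all tested genes. The means were 6.96 ± 0.919 CPM in control (SD, n = 10) and 13.3 ± 4.87 CPM in IDA mice (SD, n = 10). The log2 fold change was 0.94, or 1.92-fold (standard error 0.16, adjusted p = 2.29e-05, edgeR). Counts were low, from 41 to 68 read pairs in control and from 60 to 190 in IDA mice.

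The IDA mice were uneven for *Slc16a3*. Replicates 3, 4 and 5 had 137, 190 and 150 read pairs, and the other 7 IDA mice lay between 60 and 90. With any 1 mouse left out, the log2 fold change lay between 0.81 and 0.99, and with a mouse of each diet left out between 0.77 and 1.02, with the highest adjusted p at 0.000217. The column headers carry library numbers in separate runs, which split the mice into 5 control and 3 IDA mice on one side and 5 control and 7 IDA mice on the other. Within these, *Slc16a3* was higher by 0.95 (adjusted p = 0.00491) and by 0.90 (adjusted p = 0.00447), in edgeR.

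Markers of blood cells were mostly higher in IDA mice, as *Slc16a3* was, but they did not all follow it from mouse to mouse. The summed level of 6 neutrophil markers lay between 1.46 and 16.1 CPM in control mice and between 5.44 and 116 CPM in IDA mice, and all 3 of those that could be tested were higher. Neutrophil markers were highest in IDA replicates 5 and 4, at 116 and 64.9 CPM, whereas replicate 3 had 16.5 CPM. *S100a9*, a calcium-binding protein of neutrophils, reached 40.5 CPM in replicate 5. Lymphocyte markers were highest in IDA replicates 5, 3 and 4, at 25.4, 16.3 and 12.1 CPM, against at most 7.95 CPM in control mice. All 3 tested lymphocyte markers were higher. Of 7 macrophage markers, 5 were higher and 1 was lower. Among IDA mice their sum was highest in replicates 4, 3 and 5, at 706, 692 and 690 CPM. It was lowest in replicate 7, at 571 CPM. Fibroblast and adipocyte markers also had their highest IDA sums in replicates 3, 4 and 5. All 5 platelet markers were higher, but in replicate 4 their sum ranked 9 of 10 IDA mice, at 108 CPM. Erythroid markers were lowest of the IDA mice in replicate 3, at 163 CPM, and highest in replicate 9, at 607 CPM. Markers of skeletal muscle, a tissue rich in MCT4, summed to at most 6.73 CPM in control mice and at most 24.8 CPM in IDA mice. The medians of the sums were 4.24 and 6.46 CPM. Of the 3 that could be tested, 1 was higher and 0 were lower, and *Myh1*, *Myh2*, *Myh4* and *Actn3* were too low to be tested. With the mean of the neutrophil markers in the edgeR model, an alternative added after seeing the data, *Slc16a3* was higher by 0.66 (standard error 0.18, adjusted p = 0.00428). With the mean of the 4 tested erythroid markers, 3 of which were higher and 1 lower, it was higher by 0.73 (standard error 0.26, adjusted p = 0.0187). These markers were themselves mostly higher in IDA mice, so such a model cannot tell diet and blood cell content apart. Macrophage, lymphocyte, fibroblast and adipocyte markers were not entered in a model. Which cells of the heart carried the *Slc16a3* reads was not tested.

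*Slc16a1*, which encodes MCT1 and lies on chromosome 3 from 104638668 to 104658462, plus strand, showed no such difference on the CPM scale. It ranged from 307 to 370 CPM in control mice, with a median of 336, and from 308 to 376 CPM in IDA mice, with a median of 328. The diets overlapped almost fully. The means were 338 ± 20.5 and 336 ± 22.0 CPM (SD, n = 10 each). The log2 fold change was -0.0074 with a 95% interval from -0.095 to 0.080 (adjusted p = 0.885, edgeR). It was not called under any other scaling tried that left gene length alone (-0.098 to 0.045), whereas a correction for gene length gave 0.23 (standard error 0.047, adjusted p = 0.000302).

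*Bsg*, on chromosome 10 from 79704358 to 79711979, plus strand, encodes the chaperone and partner of both carriers. It ranged from 219 to 288 CPM in control mice, with a median of 245.8, and from 245.8 to 306 CPM in IDA mice, with a median of 290.6. The diets overlapped, and 6 of 10 IDA mice were above the highest control mouse. The means were 251.6 ± 21.9 and 279.5 ± 21.6 CPM (SD, n = 10 each), a log2 fold change of 0.15 (standard error 0.05, adjusted p = 0.0124, edgeR). With the correction for gene length the difference was -0.0076 (adjusted p = 0.913).

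*Ldha* lies on chromosome 7 from 46845804 to 46855627, plus strand, and encodes the A subunit. It ranged from 224 to 292 CPM in control mice, with a median of 254.6, and from 276 to 315 CPM in IDA mice, with a median of 305.5. The control mean was exceeded in 10 of 10 IDA mice, and 7 exceeded the highest control mouse. The means were 257.9 ± 21.4 and 299.6 ± 14.7 CPM (SD, n = 10 each). The log2 fold change was 0.22, or 1.16-fold (standard error 0.04, adjusted p = 0.000172, edgeR).

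*Ldhb*, on chromosome 6 from 142490249 to 142507943, minus strand, encodes the B subunit. It ranged from 178 to 233.6 CPM in control mice, with a median of 197, and from 198 to 242.6 CPM in IDA mice, with a median of 232.9. The overlap was wider than for *Ldha*, and 5 of 10 IDA mice were above the highest control mouse. The means were 202 ± 17.9 and 224 ± 17.3 CPM (SD, n = 10 each), a log2 fold change of 0.15 (standard error 0.05, adjusted p = 0.0144, edgeR). IDA replicates 3, 4 and 5, the deepest libraries of that diet, were the lowest IDA mice for *Ldha*, *Ldhb*, *Bsg* and *Mpc2*.

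*Mpc2*, on chromosome 1 from 165461208 to 165481214, plus strand, encodes a subunit of the mitochondrial pyruvate carrier. It ranged from 99.1 to 131 CPM in control mice, with a median of 109, and from 117 to 140 CPM in IDA mice, with a median of 136. Each of the 10 IDA mice exceeded the control mean, and 7 exceeded the highest control mouse. The means were 113 ± 10.1 and 131 ± 9.43 CPM (SD, n = 10 each), a log2 fold change of 0.22 (standard error 0.05, adjusted p = 0.000622, edgeR).

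*Mpc1*, the other subunit, on chromosome 17 from 8283813 to 8297661, plus strand, did not pass the test. It ranged from 17.8 to 23.0 CPM in control mice, with a median of 19.6, and from 18.6 to 24.0 CPM in IDA mice, with a median of 20.7. The diets overlapped over most of their range. The means were 20.1 ± 1.93 and 21.02 ± 2.02 CPM (SD, n = 10 each), with a log2 fold change of 0.065 and a 95% interval from -0.076 to 0.21 (adjusted p = 0.398, edgeR). *Mpc1* is also the member whose count is least certain. Of its exonic bases, 11.7% lie in exons of *4930506C21Rik* on the opposite strand, and reads were counted without strand. That antisense gene was lower in IDA mice, at 2.68 CPM in control and 1.15 CPM in IDA mice, which is a log2 fold change of -1.23 with a standard error of 0.25 (adjusted p = 0.000145, edgeR). In addition, 24.8% of the 75-base windows of its transcript recur in another gene, mostly *Mpc1-ps*. The same share was 16.8% in *Ldhb*, all in *Gm5514*, 5.23% in *Ldha*, over 4 genes, and 0% in the other 4 members.

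Counts before scaling were also compared. Duplicate read pairs had been removed, and 4 members, *Ldhb*, *Bsg*, *Ldha* and *Mpc2*, had a mean of at least 1 counted pair per exonic base, at 1.22, 1.119, 1.07 and 1.06. This was so for 1.99% of tested genes, and no gene of at least 200 bp passed 2.39 pairs per base in any mouse. In these 4 genes the counts hardly rose with depth. Between the shallowest control library (6797180 pairs) and the deepest (8960688 pairs), *Bsg* went from 1930 to 1948 read pairs, *Ldha* from 1956 to 1992, *Ldhb* from 1565 to 1579 and *Mpc2* from 852 to 880. *Slc16a1*, at 0.57 pairs per base, went from 2382 to 2729. *Mpc1*, at 0.17 pairs per base, also rose little, from 154 to 166, and *Slc16a3*, at 0.030, went from 50 to 59.

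In some members the spread of the counts was narrower than the square root of the mean, the size of plain counting error. In control mice, *Bsg* had 1920 ± 36.5 read pairs (SD, n = 10), where the square root of the mean is 43.8, and *Ldhb* had 1541 ± 27.4, where it is 39.3. This held for 4 of the 7 members in control mice, *Ldhb*, *Bsg*, *Mpc1* and *Mpc2*, and for 5.67% of all tested genes. In IDA mice it held for 2 members, *Bsg* and *Mpc1*, and for 4.3% of all tested genes, whereas *Ldha* had an SD of 87.3 read pairs beside a square root of 46.4. Control libraries were deeper, with a median of 7902932 pairs against 6806177 in IDA mice, and the part of depth in the CPM differences was not tested beyond the values that follow. Compared as counts without any scaling between mice, an alternative added after seeing the data, *Ldha* was higher in IDA mice by 0.13 (adjusted p = 0.000796), *Mpc2* by 0.13 (adjusted p = 0.00363) and *Bsg* by 0.060 (adjusted p = 0.0379), in edgeR. *Ldhb* was at 0.058 and no longer passed (adjusted p = 0.0676). *Slc16a3* was higher by 0.87 (adjusted p = 0.000823).

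**Figure D2:**
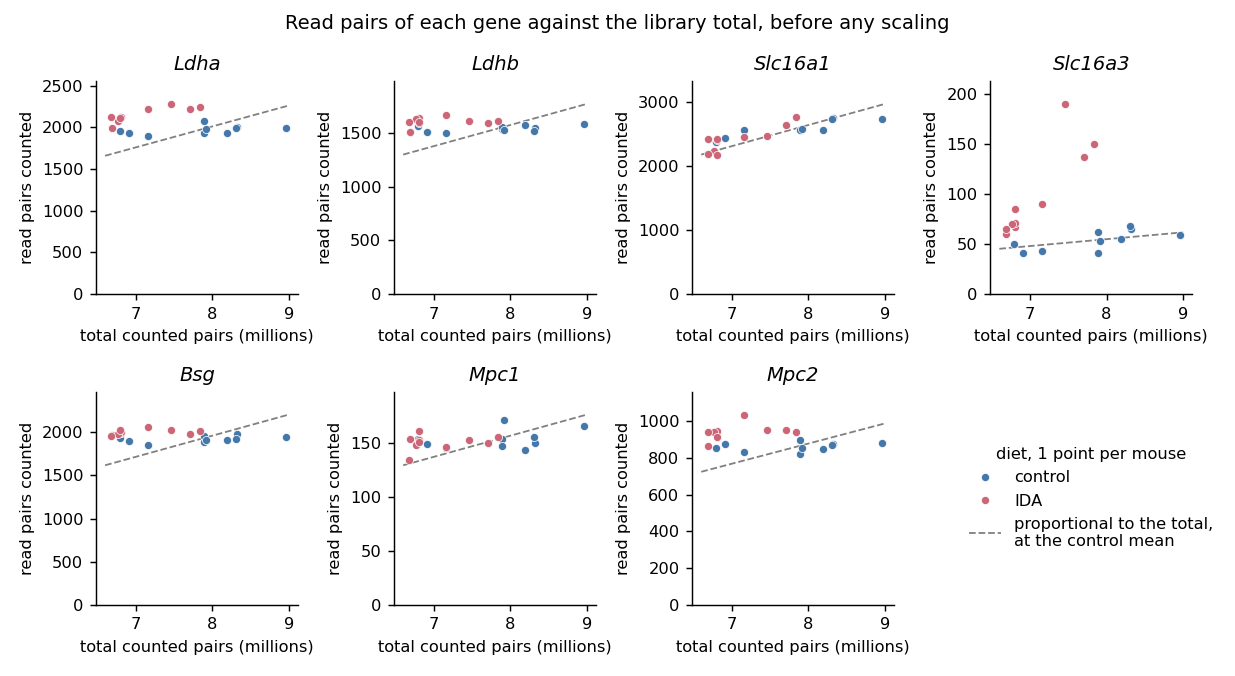
Read pairs counted for each gene against the total counted pairs of the mouse, before any scaling. The dashed line shows counts proportional to the total at the control mean. *Ldha*, *Ldhb*, *Bsg* and *Mpc2* stay level as the total rises and *Mpc1* rises little. *Slc16a1* follows the line more closely, and IDA mice lie above control mice of like depth most clearly for *Slc16a3*.

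Library size entered as a covariate gave 0.092 for *Ldha* (standard error 0.020, adjusted p = 0.000715) and 0.077 for *Mpc2* (standard error 0.029, adjusted p = 0.0285), against -0.0029 for *Ldhb* and 0.00051 for *Bsg*, in edgeR. *Slc16a3* was higher by 1.21 under the same covariate. In the mice with 5 control and 3 IDA libraries of one run of numbers, *Ldha* was at 0.11 (adjusted p = 0.237), *Mpc2* at 0.13 (adjusted p = 0.217), *Ldhb* at 0.016 and *Bsg* at 0.013, and none of these 4 passed the test. In the 5 control and 7 IDA libraries of the other run, the 4 genes were higher by 0.25 to 0.30 and all passed. With the run of library numbers as a term in the model, the values were 0.23 for *Ldha*, 0.16 for *Ldhb*, 0.17 for *Bsg* and 0.24 for *Mpc2*, and all 4 passed.

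Fold changes followed exonic length across the whole transcriptome, with short genes higher and long genes lower in IDA mice. The members span 854 bp (*Mpc2*) to 4426 bp (*Slc16a1*). After a correction that subtracts a curve on exonic length from each mouse, 2 members were higher, *Slc16a3* by 0.92 (adjusted p = 3.97e-05) and *Slc16a1* by 0.23, and 1 was lower, *Mpc1* at -0.24 (adjusted p = 0.00691), in edgeR. Over all genes, 31.5% were higher and 23.5% were lower under this correction. *Ldha* was at 0.090 (standard error 0.044, adjusted p = 0.0837), *Mpc2* at -0.093 (adjusted p = 0.0682) and *Ldhb* at -0.091 (adjusted p = 0.129), and these did not pass. The correction removes any trend on length, whatever its source.

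**Figure D3:**
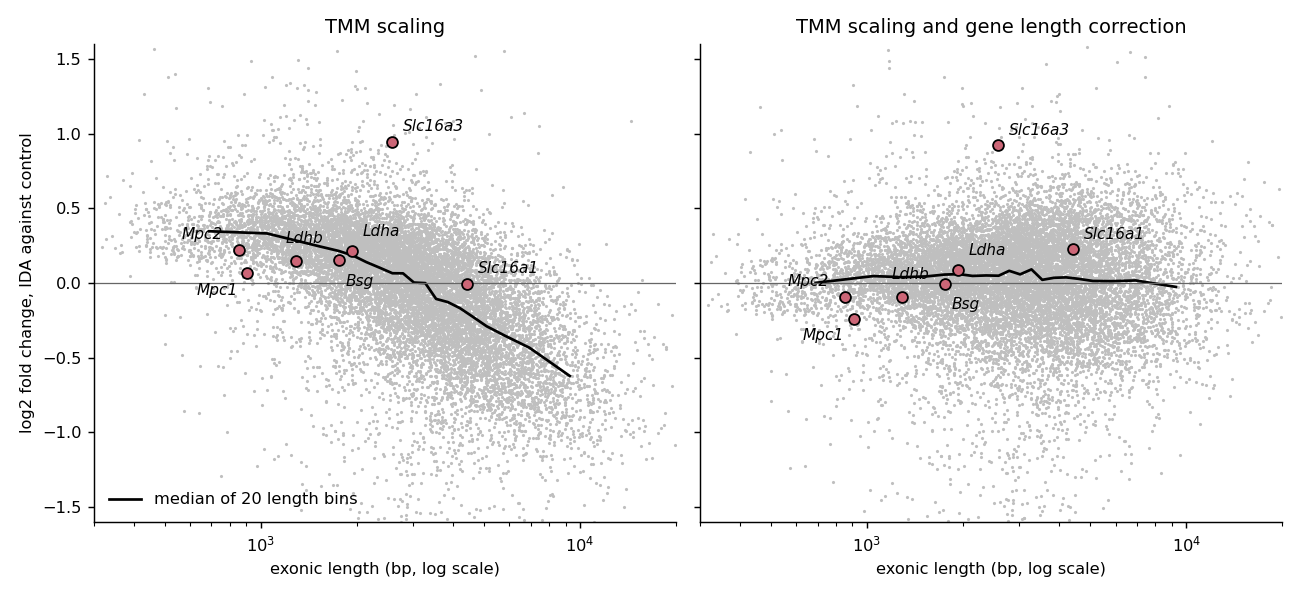
Log2 fold change of IDA against control for each tested gene (grey) against exonic length in bp on a log axis, with TMM scaling at left and with the added gene length correction at right. The 7 genes are named, the black line is the median of 20 bins of length, and points outside the axes are not drawn. On the left *Ldhb*, *Mpc2* and *Mpc1* lie below the black line, *Bsg* and *Ldha* lie close to it, and *Slc16a1* and *Slc16a3* lie above it.

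Ratios of 2 genes within a mouse need no scaling between mice, and 5 were compared by two-sided permutation tests (100000 resamples), with p-values adjusted over the 5. The *Ldha* to *Ldhb* ratio sets the A subunit against the B subunit. Per exonic length, its median was 0.850 in control mice (range 0.823 to 0.895) and 0.886 in IDA mice (range 0.854 to 0.947), so *Ldhb* was the higher transcript in every mouse. On the log2 scale of counts, the ratio was 0.353 ± 0.0362 in control and 0.422 ± 0.0479 in IDA mice (SD, n = 10 each), a difference of 0.07 (permutation test, p = 0.00179, adjusted p = 0.00179). The ranges overlapped, and 10 of 10 IDA mice were above the control mean. After the gene length correction the difference was 0.18 (permutation test, adjusted p = 0.0001). Both genes are among those whose counts stayed level with depth, and what that does to their ratio was not tested.

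The *Slc16a3* to *Slc16a1* ratio sets MCT4 against MCT1. Per length, its median was 0.0365 in control mice (range 0.0274 to 0.0427) and 0.0584 in IDA mice (range 0.0427 to 0.132). *Slc16a1* thus remained the higher transcript by far in every mouse. The log2 ratio was higher in IDA mice by 0.88 (permutation test, p = 3e-05, adjusted p = 0.00015) and by 0.60 after the gene length correction (permutation test, adjusted p = 0.00095). Against *Bsg*, *Slc16a3* was higher by 0.72 (permutation test, adjusted p = 0.00095).

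The *Slc16a1* to *Bsg* ratio, the common carrier against its partner, was lower in IDA mice, at a difference of -0.16 (permutation test, adjusted p = 0.00164), with 9 of 10 IDA mice below the control mean. This ratio turned over with the gene length correction, to 0.24 (permutation test, adjusted p = 0.0001), so no direction can be given for it. The *Mpc1* to *Mpc2* ratio compares the carrier's subunits, which have nearly the same exonic length, 907 and 854 bp. Per length its median was 0.166 in control mice (range 0.154 to 0.189) and 0.152 in IDA mice (range 0.133 to 0.168). The log2 ratio was lower, at a difference of -0.16 (permutation test, p = 0.00131, adjusted p = 0.00164) and of -0.15 after the length correction (permutation test, adjusted p = 0.00194), with 9 of 10 IDA mice below the control mean. Between the shallowest and the deepest control library *Mpc1* went from 154 to 166 read pairs and *Mpc2* from 852 to 880, at 0.17 and 1.06 pairs per base, and what this does to their ratio was not tested.

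**Figure D4:**
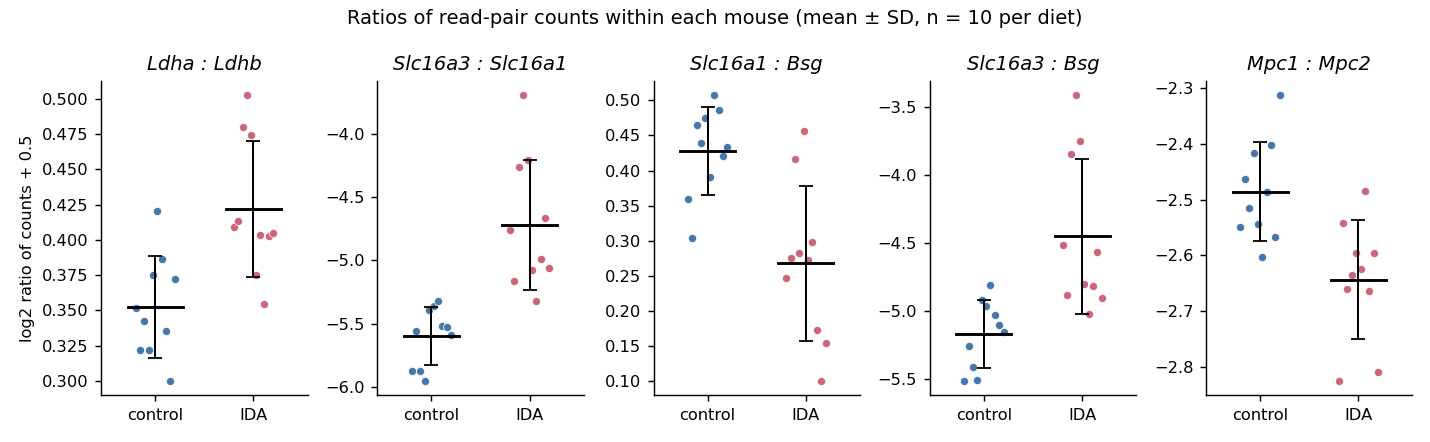
Log2 ratio of read-pair counts (each + 0.5) within each mouse for 5 pairs of genes, by diet, with the mean and SD of 10 mice. The axes differ between panels and do not start at 0, since these are log ratios. *Ldha* : *Ldhb*, *Slc16a3* : *Slc16a1* and *Slc16a3* : *Bsg* sit higher in IDA mice, and *Slc16a1* : *Bsg* and *Mpc1* : *Mpc2* sit lower.

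Levels of the 7 genes were compared per length, as RPKM, which is CPM divided by exonic length in kilobases. The order was the same in both diets. *Ldhb* was highest, at a mean of 157 RPKM in control and 174 RPKM in IDA mice, and above *Bsg* in all 10 mice of each diet. *Bsg* (144 and 159.5 RPKM), *Ldha* (134 and 155 RPKM) and *Mpc2* (132 and 154 RPKM) followed closely. In control mice *Bsg* was above *Ldha* in 10 of 10 mice and *Ldha* above *Mpc2* in 9 of 10. In IDA mice these counts were 7 of 10 and 5 of 10, so in that diet these neighbours did not differ beyond their spread. *Slc16a1* had 76.4 and 76.0 RPKM, *Mpc1* had 22.1 and 23.2 RPKM, and *Slc16a3* had 2.70 and 5.17 RPKM, and each of these steps held in 10 of 10 mice. The highest 4 are the genes with at least 1 pair per base, and what the removal of duplicates does to their order was not tested.

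The genes most like each member were named by the correlation of log2 CPM over the 20 mice, after subtracting the mean of each diet. All values come from the same libraries and share their depth, and are given as descriptions. For *Slc16a3* these were *Ttc9*, a tetratricopeptide repeat gene (r = 0.89), *Il4ra*, an interleukin receptor subunit (r = 0.89), and *Wisp2*, a matricellular protein (r = 0.87). All 3 were higher in IDA mice, by 0.89, 0.50 and 0.87 on the log2 scale. For *Ldha* they were *Tpi1*, a glycolytic enzyme, *Casq2*, the calcium store protein of cardiac muscle, and *Hspb8*, a small heat shock protein, each with r = 0.98. For *Ldhb* they were *Tnni3*, *Ech1* and *Psap* (r = 0.99 each), and for *Bsg* they were *Hsp90ab1*, *Psap* and *Idh2* (r = 0.99 each). For *Mpc2* they were the respiratory complex I genes *Ndufb11* (r = 0.99) and *Ndufc2* (r = 0.98) and the muscle enzyme *Pgam2* (r = 0.98). *Slc16a1* was most like *Prkar1a*, *Rad23b* and *Plekhb2* (r = 0.88 to 0.89), and *Mpc1* most like *Pacsin2*, *Eif4b* and *Cops3* (r = 0.89 to 0.91). After the gene length correction r was 0.50 for *Pacsin2*, 0.47 for *Eif4b* and 0.93 for *Cops3* with *Mpc1*. Among the members themselves, *Ldha*, *Ldhb*, *Bsg* and *Mpc2* varied together (r = 0.94 to 0.98), and *Slc16a3* varied against each of the other 6 (r from -0.66 to -0.38).

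Other genes of the pathway were taken from lists chosen by function. Of 3 other lactate dehydrogenase family genes, only *Ldhd*, a mitochondrial D-lactate enzyme, could be tested, and it did not pass (134 ± 7.89 CPM in control and 134 ± 15.6 CPM in IDA mice, SD, n = 10 each, log2 fold change -0.0023). Of 12 tested genes for other monocarboxylate carriers and their partners, 0 were higher, 5 were lower and 7 did not pass, with a median of -0.20, where 35.0% of all genes were higher and 32.5% lower. *Slc16a4*, an orphan carrier, fell by 0.93 on the log2 scale (2.46 ± 0.795 to 1.28 ± 0.420 CPM, SD, n = 10 each, adjusted p = 0.000337, edgeR) and *Slc16a12*, a creatine carrier, by 0.47 (adjusted p = 0.00495). *Slc16a6* was lower, with a log2 fold change of -0.26 (adjusted p = 0.00644, edgeR), but was at -0.017 under the gene length correction (adjusted p = 0.876). Under that correction 1 of the 12 was higher and 4 were lower, with a median of -0.048.

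Of 12 tested enzymes on a list for the formation and use of pyruvate, 6 were higher and 0 were lower, beside 35.0% and 32.5% of all genes. The list also takes in phosphoenolpyruvate carboxykinases and acetyl-CoA synthetases, which do not act on pyruvate itself. They are part of the counts given here, and *Pck2* was among the 6. *Mpst*, a mitochondrial sulfur transferase that releases pyruvate, was higher by 0.41 (63.5 ± 6.01 to 84.2 ± 9.96 CPM, SD, n = 10 each, adjusted p = 1.43e-05, edgeR), and *Pck2*, the mitochondrial enzyme that forms phosphoenolpyruvate, by 0.30 (adjusted p = 0.00651). *Me3*, a mitochondrial malic enzyme, and *Gpt*, alanine aminotransferase, were higher by 0.21 and 0.20. With the gene length correction 7 were higher and 0 lower, and 5 kept their call and direction in both fits. *Me3* was then at 0.44, and *Gpt* lost its call, at 0.037 (adjusted p = 0.712). Among 12 genes of the pyruvate dehydrogenase complex and its regulators, the alternative fate of the pyruvate that *Mpc1* and *Mpc2* carry, 4 were higher and 4 were lower, which is close to the 35.0% and 32.5% of all genes. The largest differences in the list were those of *Pdpr* and *Pdp2*. *Pdpr*, the regulator of the phosphatase, fell by 1.35 on the log2 scale (112 ± 25.9 to 43.9 ± 14.9 CPM, SD, n = 10 each, adjusted p = 6.06e-07, edgeR) and *Pdp2*, a phosphatase, by 0.91 (66.9 ± 18.4 to 35.7 ± 9.15 CPM, adjusted p = 4.41e-05). *Pdp1*, another phosphatase, was lower, at -0.17, and turned to 0.050 under the gene length correction (adjusted p = 0.478). The kinases, which inactivate the complex, were mixed. *Pdk3* was higher by 0.40 (adjusted p = 0.0498, edgeR) and *Pdk2* by 0.13, *Pdk1* was lower, at -0.11 (adjusted p = 0.0290), and *Pdk4* did not pass. Under the length correction *Pdk3* was at 0.28 (adjusted p = 0.169) and *Pdk1* turned to 0.20 (adjusted p = 0.000337). In all, 2 of the 12 were then higher and 2 lower, the latter being *Pdpr* and *Pdp2*.

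**Figure D5:**
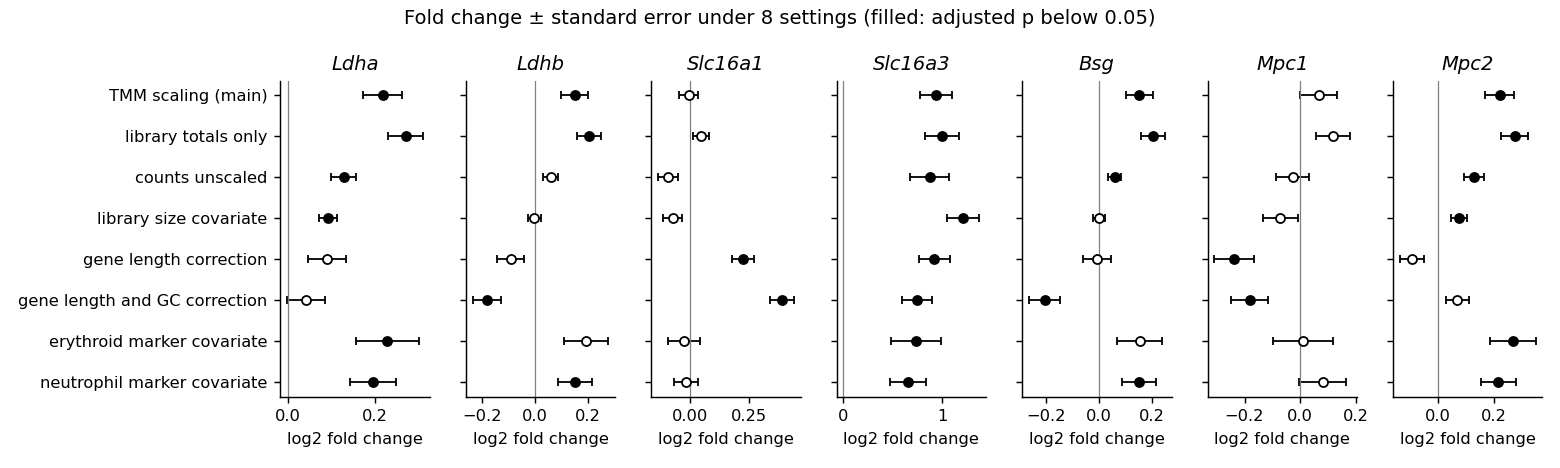
Log2 fold change ± standard error of each gene under 8 settings, with filled points for an adjusted p below 0.05, and axes that differ between panels. *Slc16a3* is filled and above 0 in all 8 settings, while *Ldhb*, *Bsg*, *Mpc1*, *Mpc2* and *Slc16a1* each change side of 0 and *Slc16a1* is filled only under the gene length corrections.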

How the data were processed

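Per the methods of the authors, 75-base read pairs were mapped by STAR to the mm10 genome. Duplicates were taken out by samtools, and featureCounts (version 1.4.5-p1) tallied exonic pairs regardless of strand. They deposited raw counts for 23420 genes with exonic lengths. Mice were grouped by their labels. The genes and lists were chosen with earlier results of these data known.

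Genes reaching 1 CPM in 10 or more mice (13590, with 9830 left out) were tested in R 4.3.3 with edgeR 4.0.16 (TMM, quasi-likelihood test, diet as the only factor). DESeq2 1.42.0 and limma 3.58.1 were alternatives, besides other scalings, filters, covariates, the replicate number as a block, and mice left out. The length correction entered a loess curve (span 0.5, degree 1) of each mouse's deviations on log2 exonic length as offsets. GC content was known for 99.3% of tested genes. Ratios used counts + 0.5. Log2 CPM used a prior count of 2.

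Named genes are the members, up to 4 called genes of each list with the largest absolute log2 fold change, the 3 genes most like each member, and markers that moved. A gene that this rule would name is not reported here. *4930506C21Rik*, *Mpc1-ps*, *Gm5514*, *Pdk1*, *Pdk2* and *Pdk4* were named after their values or overlaps were seen. The fits were tested on simulated data. Depth was 6682177 to 8960688 pairs per mouse, and low counts such as those of *Slc16a3* carry more counting error. Promoter sequences and start sites come from RefSeq (GRCm38.p6). They were searched over the 250 bases upstream, with an entry for 6 of 7 members.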

Additional observations from a re-analysis of the deposited data

Results flagged for a closer look

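None of the 14 groups of 10 mice formed by the 7 genes and 2 diets had a mouse standing apart by Dixon's test at 95%, and none of the ratios did. Of 46 groups tested in all, 5 did, each in a summed marker level, and chance alone flags about 1 in 20. Control replicate 3 was highest for smooth muscle and pericyte markers, at 1236 CPM, and for adipocyte markers, at 42.2 CPM, with *Slc16a3* at 6.21 CPM. Control replicate 5 was highest for erythroid markers, at 169.6 CPM, with *Slc16a3* at 7.98 CPM. IDA replicate 7 was lowest for macrophage markers, at 571 CPM, with *Slc16a3* at 9.35 CPM, the lowest of its diet. IDA replicate 9 was highest for skeletal muscle markers, at 24.8 CPM, with *Slc16a3* at 12.3 CPM.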

How the results depend on the processing

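*Slc16a3* kept its direction and its call in all 17 other settings, from 0.66 to 1.21. It also kept them with any 1 mouse, or any 1 mouse of each diet, left out. Apart from the runs of library numbers, no fit left out more than 1 mouse of a diet. The other members depended on depth, gene length or the mice used, and the causes were not tested. Under the gene length correction *Ldha* was 0.090, *Ldhb* -0.091, *Slc16a1* 0.23, *Bsg* -0.0076, *Mpc1* -0.24 and *Mpc2* -0.093. With gene length and GC corrected together they were 0.042, -0.18, 0.39, -0.20, -0.18 and 0.071, and of the 5 members then called, 2 were higher and 3 lower. Of all 13590 genes, 6357 were called in that fit. With library size as a covariate, *Ldhb* was -0.0029, *Bsg* 0.00051 and *Mpc1* -0.072. With the erythroid marker mean as a covariate, *Ldhb* was 0.19 (adjusted p = 0.0534) and *Bsg* 0.15 (adjusted p = 0.125), neither passing. Without TMM *Slc16a1* was 0.045, and with upper-quartile factors 0.020.

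Of the settings added after seeing the data, counts without scaling gave *Ldhb* 0.058 and *Mpc1* -0.028, and the library number block as a covariate gave *Slc16a1* 0.0079. In the 5 control and 3 IDA mice of one run of library numbers, *Ldha* was 0.11, *Ldhb* 0.016, *Bsg* 0.013, *Mpc1* -0.041 and *Mpc2* 0.13, with 1 member called, 5 genes of the other lists and 5908 of all genes, against 9177 with all mice. In the other run, *Slc16a1* was 0.057. Of the 7 members, 3 were called under the gene length correction, 3 with library size and 3 with the erythroid mean as a covariate. Of all 13590 genes, 7474, 7920 and 7500 were called in these same fits. Of the 47 other listed genes tested, 28 were called, against 18 under the gene length correction and 17 with the erythroid mean. The *Slc16a1* to *Bsg* ratio turned from -0.16 to 0.24 under the gene length correction, and the other 4 ratios kept direction and call in each alternative.

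With mice left out, *Ldhb* lay between 0.10 and 0.19, *Bsg* between 0.11 and 0.19 and *Slc16a1* between -0.047 and 0.020. The members called lay between 3 and 5, the other listed genes called between 17 and 30 and all genes called between 8548 and 9359. No member lost its call with 1 mouse left out. With 1 mouse of each diet left out, *Ldhb* lost its call in 8 of 100 fits and *Bsg* in 5 of 100, each of the latter without control replicate 8, the deepest library. Without control replicate 8 alone, 18 of the other listed genes were called. Mice with the same replicate number did not deviate together (correlations from -0.28 to 0.26, with 3 of 10 pairs over 0.1), so the numbers are not taken as pairs. A replicate block in edgeR left 5 members and 8912 of all genes called, with *Slc16a3* at 0.89 and *Ldha* at 0.22. No call of a member or ratio changed.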

Other observations

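The shuttles that pass the electrons of cytosolic NADH to mitochondria compete with lactate dehydrogenase for its cofactor, and were listed beside the lactate genes. Of 10 tested, 6 were higher and 3 were lower in IDA hearts, with a median log2 fold change of 0.12, beside 35.0% higher and 32.5% lower among all genes. The glycerol phosphate shuttle divided. *Gpd2*, its mitochondrial enzyme, fell from 49.4 ± 5.39 CPM in control to 27.8 ± 5.15 CPM in IDA mice (SD, n = 10 each), a log2 fold change of -0.83 (standard error 0.09, adjusted p = 2.63e-07, edgeR), and no IDA mouse reached the lowest control mouse (at most 36.2 against at least 40.3 CPM). Every IDA mouse lay above every control mouse in 4.97% of all tested genes, and the share with the reverse was not counted. *Gpd1*, the cytosolic enzyme, rose from 176 ± 12.02 to 197 ± 9.42 CPM (log2 fold change 0.17, adjusted p = 0.000903), and its relative *Gpd1l* fell by 0.22 (adjusted p = 0.000976). *Slc25a13*, an aspartate and glutamate carrier, fell by 0.15 (adjusted p = 0.00779). With the gene length correction, *Gpd2* was still lower, at -0.46, *Gpd1* was still higher, by 0.18, and no other gene of the list passed the test.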
